A study of Arabidopsis thaliana with 20 samples.

Results

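Beta-tubulin is the partner of alpha-tubulin in the dimer from which microtubules are built. The TUB genes of Arabidopsis thaliana were chosen by their symbol in the platform annotation, TUB followed by a number. The rule found 5 genes, TUB1 (AT1G75780), TUB5 (AT1G20010), TUB6 (AT5G12250), TUB7 (AT2G29550) and TUB9 (AT4G20890), of 17198 genes with a named probe, and 7 probes of 30194. TUB2, TUB3, TUB4 and TUB8, the other members among 9 TUB genes in the RefSeq gene table of TAIR10.1, are not analysed here. The family was picked for description with its log ratios in all 5 intervals and in the sum over each tissue set already known, so its changes and calls are given as a description and no p-value is given for them.

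All plants had the genotype 35S:AP1-GR ap1 cal: they lacked the floral regulators AP1 and CAL and carried AP1 joined to a glucocorticoid receptor domain under the broadly active 35S promoter. Each inflorescence received 1 µM dexamethasone, which releases the fusion protein, at the start of bolting, and no mock-treated tissue was analysed here. Tissue rich in meristem was pooled from about 25 plants for each of days 0 to 5 in 4 independent sets, and each of 20 two-colour arrays set a day of a set against the next. The tested days were therefore 1 over 0, 2 over 1, 3 over 2, 4 over 3 and 5 over 4, with 4 arrays each, and neighbouring intervals of a set share the tissue of the day between them. Each value is a log10 ratio, positive where the later day was higher. The log base was read from the values and the direction rests on an assumed channel order, as the account of the processing explains.

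Every array gave a value for 30142 to 30180 probes, and for the TUB probes no value was missing and none stood at the limit of the scale. The arrays hold ratios and no levels, so the abundance of the TUB transcripts cannot be ordered, and fewer cells of a type and less RNA per cell cannot be told apart. Of 9 meristem markers listed, CLV3, UFO, AGL24 and FD had a named probe. None of 8 vascular markers had one. A gene is called where limma, fitted to all features, gave an adjusted p under 0.05.

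Markers of other cell types moved over the course. From day 0 to day 1, the interval of the 1 TUB call, the trichome gene TRY rose by 0.37 (adjusted p = 2.46e-05 by limma) and UFO rose, while FD fell. UFO fell from day 3 to day 4, and UFO and CLV3 from day 4 to day 5, and CLV3, AGL24 and FD were lower for day 5 against day 0. With the tissue set as a replicate block, UFO from day 3 to day 4 (adjusted p = 0.0811 by limma) and CLV3 from day 4 to day 5 (0.0922) were not called. For day 5 against day 0 the sum of the interval coefficients did not call CLV3, with the block (adjusted p = 0.156 by limma) or without it (0.0759). The stomatal lineage gene MUTE and the sporocyte gene SPL rose from day 3 to day 4, from day 4 to day 5 and for day 5 against day 0. AMS, the other measured anther gene, averaged 0.049 ± 0.12, -0.11 ± 0.23 and -0.15 ± 0.35 (SD, n = 4) in these comparisons and was not called. RCA of photosynthetic tissue rose from day 4 to day 5, and TRY was 0.68 higher for day 5 against day 0. Scaling the arrays to 1 spread lost the calls of RCA (adjusted p = 0.0775 by limma) and MUTE (0.0875) from day 4 to day 5. CLV3 (0.0927) and UFO (0.136) were not called there either, nor CLV3 for day 5 against day 0 (0.0525). RCA and CLV3 from day 4 to day 5 were not called without set 1, 2, 3 or 4 in turn. Calls of UFO, SPL and, from day 4 to day 5, MUTE were lost without some sets. With 3 sets no feature was called for day 5 against day 0. By list 4 of 9 meristem, 2 of 3 stomatal, 1 of 4 trichome, 2 of 7 anther and 2 of 5 leaf markers were measured. Their part in the tubulin values was not tested.

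Plant microtubules lie beneath the plasma membrane of growing cells, where they guide the laying down of cellulose, and they form the preprophase band, the spindle and the phragmoplast of dividing cells. Both kinds of array are at work in young flowers, whose cells divide and expand as organs form. The TUB proteins are closely related isotypes, and a probe for 1 member may also bind transcripts of another. The probe sequences are not among the files used here, and this was not tested.

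From day 0 to day 1 TUB1 fell 1.38-fold, the 1 call among 5 genes. Of all 28634 features 3.32% were called in this interval. No TUB gene was called by limma from day 1 to day 2 (1.15% of features called), from day 2 to day 3 (0.419%), from day 3 to day 4 (1.35%), from day 4 to day 5 (0.758%) or for day 5 against day 0 (2.87% of 28616 features). At an unadjusted p under 0.05 these 5 comparisons held 1, 0, 2, 0 and 1 of the 5 genes, against 13.5%, 8.5%, 9.79%, 11.3% and 17.6% of all features. Because the family was picked with these contrasts known, nothing is read from the counts.

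TUB1, a beta-tubulin gene known for strong expression in roots, had the smallest residual scatter of the family over the intervals, as the mean of 2 probes. From day 0 to day 1 its log10 ratios were -0.15, -0.11, -0.18 and -0.12 in sets 1 to 4, a mean of -0.14 ± 0.035 (SD, n = 4). All sets lay below 0. This call was lost with the tissue set as a replicate block, with the arrays of the interval fitted alone, and without set 1, 2, 3 or 4 in turn, when no TUB gene was called in this interval. Over all features 950 were called in the reported fit, 605 with the block and 5 with the interval alone. Without sets 1 to 4 in turn 349, 195, 1040 and 341 were called. The part of these counts in the lost call was not tested. The fitted change stayed between -0.15 and -0.13 without each set.

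From day 1 to day 2 TUB1 measured 0.094, 0.082, 0.095 and -0.11 (mean 0.040 ± 0.10, SD, n = 4), with set 4 alone below 0. The next interval, day 2 to day 3, gave 0.053, 0.012, 0.0089 and 0.033, a mean of 0.027 ± 0.021. From day 3 to day 4 it measured -0.13, -0.021, -0.071 and -0.075 (-0.075 ± 0.046), and from day 4 to day 5 -0.028, 0.048, 0.13 and 0.058 (0.052 ± 0.065). As a mean of 2 probes, the sets were thus on the same side of 0 in 3 of the 5 intervals, at small sizes. Summed over the course, TUB1 was at -0.16, 0.014, -0.021 and -0.21, a mean of -0.096 ± 0.11, and set 2 lay on the other side of 0 from the rest.

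TUB1 is the mean of 2 probes that did not follow each other over the 20 arrays (Pearson r = -0.077). From day 0 to day 1 probe A025839_01 averaged -0.12 ± 0.053 and probe A201036_01 -0.16 ± 0.12 (SD, n = 4), and both were below 0 in every set. Tested singly, the first of these was called in this interval and the second was not. From day 1 to day 2 A025839_01 measured 0.078, 0.19, 0.19 and 0.14, a mean of 0.15 ± 0.055, and was called when probes were tested singly. A201036_01 measured 0.11, -0.030, -0.0015 and -0.36 in that interval, a mean of -0.070 ± 0.20. The probes also parted over the whole course: A025839_01 summed to 0.19, 0.15, 0.24 and -0.070, whereas A201036_01 summed to -0.52, -0.12, -0.29 and -0.35. The small net change of TUB1 is therefore a mean of probes with opposite mean signs, 0.13 ± 0.14 and -0.32 ± 0.16.

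**Figure D1:**
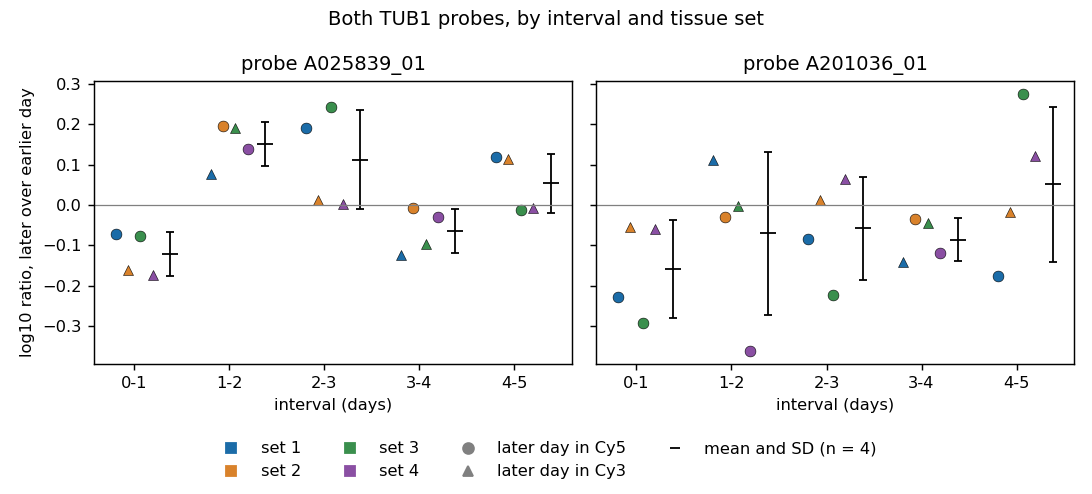
Log10 ratio of the later over the earlier day (y axis) of each TUB1 probe in each interval (x axis). Colours mark the 4 tissue sets, circles and triangles the dye of the later day, and bars the mean and SD. Both probes lie below 0 in all sets from day 0 to day 1, while from day 1 to day 2 the means are 0.15 and -0.070.

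TUB6, TUB7 and TUB9 differed widely between sets, and TUB6 had the widest values of the family. From day 1 to day 2 it measured 0.30, -0.049, 0.80 and 0.011 in sets 1 to 4 (mean 0.26 ± 0.39, SD, n = 4), a mean 1.84-fold ratio carried by sets 1 and 3. From day 3 to day 4 it measured 0.16, -0.55, -0.010 and -0.10 (-0.12 ± 0.30), with set 2 far below the others. From day 4 to day 5 the same set was the highest, the values being -0.074, 0.50, -0.27 and 0.077 (0.058 ± 0.33). In each of these intervals the SD exceeded the mean.

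In the other intervals TUB6 measured 0.0093, 0.10, -0.30 and 0.11 from day 0 to day 1 (-0.021 ± 0.19) and -0.35, -0.094, 0.24 and 0.076 from day 2 to day 3 (-0.032 ± 0.25). Its sum over the course was 0.048, -0.090, 0.46 and 0.17, a mean of 0.15 ± 0.23. Set 3 stood highest and set 2 lay below 0.

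TUB7, a further beta-tubulin isotype, was above 0 in all 4 sets from day 1 to day 2, where it measured 0.0030, 0.17, 0.47 and 0.10 (mean 0.19 ± 0.20, SD, n = 4). From day 3 to day 4 it measured -0.23, -0.39, -0.21 and 0.0098, a mean of -0.20 ± 0.17, the largest negative mean of the family in any interval. Sets 1, 2 and 3 were low there and set 4 was near 0. TUB7 measured -0.24, 0.061, -0.17 and -0.057 from day 0 to day 1 (-0.10 ± 0.13), 0.19, -0.099, 0.27 and 0.029 from day 2 to day 3 (0.098 ± 0.16), and 0.22, 0.43, -0.16 and 0.064 from day 4 to day 5 (0.14 ± 0.25). Its sums over the course were -0.059, 0.17, 0.20 and 0.15 (0.11 ± 0.12), with set 1 alone below 0.

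TUB9, known for expression in pollen, had the same highest set as TUB6 in each interval after day 1, at a smaller size, but not from day 0 to day 1. From day 1 to day 2 it measured 0.088, 0.071, 0.33 and -0.038 (mean 0.11 ± 0.16, SD, n = 4), with set 3 the highest. From day 3 to day 4 it measured -0.00033, -0.18, -0.068 and -0.043 (-0.072 ± 0.076), with set 2 the lowest, and from day 4 to day 5 -0.035, 0.29, -0.13 and 0.025 (0.036 ± 0.18), with set 2 the highest. It measured -0.040, 0.045, 0.11 and -0.020 from day 0 to day 1 (0.023 ± 0.066) and -0.11, -0.064, 0.081 and -0.042 from day 2 to day 3 (-0.032 ± 0.080). Over the course the sums were -0.093, 0.16, 0.32 and -0.12 (0.067 ± 0.21), and the sets divided evenly around 0. Its 2 probes followed each other with r = 0.48 over the 20 arrays.

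TUB5 had another pattern again. From day 1 to day 2 it measured 0.38 in set 1, against 0.034, -0.023 and 0.018 in sets 2 to 4 (mean 0.10 ± 0.19, SD, n = 4). It measured -0.16, -0.039, -0.014 and -0.039 from day 0 to day 1 (-0.062 ± 0.065), below 0 in all sets. From day 2 to day 3 the values were -0.19, 0.13, -0.021 and 0.11 (0.0078 ± 0.15), from day 3 to day 4 0.25, -0.11, 0.21 and -0.041 (0.077 ± 0.18), and from day 4 to day 5 -0.13, 0.11, 0.12 and 0.098 (0.050 ± 0.12). The sums over the course were 0.15, 0.12, 0.28 and 0.15, a mean of 0.17 ± 0.068. TUB5 was the only one of the 5 genes whose sums lay above 0 in every set, although it was not called. Without set 3 it was called from day 1 to day 2, with a fitted change of 0.19.

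**Figure D2:**
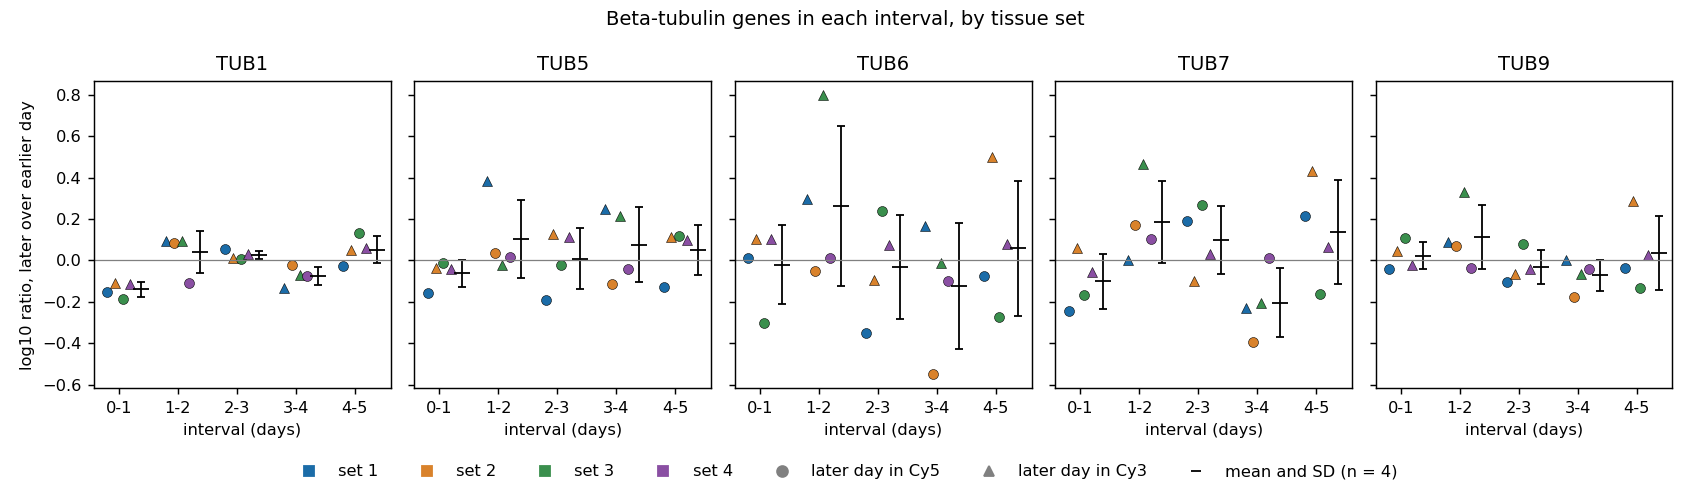
Log10 ratio of the later over the earlier day (y axis) of the 5 TUB genes in each interval (x axis). Colours mark the 4 tissue sets, circles and triangles the dye of the later day, and bars the mean and SD. TUB6 spans -0.55 to 0.80 over the arrays, while TUB1, a mean of 2 probes, stays between -0.18 and 0.13.

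As a family, the median of the 5 mean changes was -0.062 from day 0 to day 1, 0.11 from day 1 to day 2, 0.0078 from day 2 to day 3, -0.075 from day 3 to day 4 and 0.052 from day 4 to day 5. The median over all features lay between -0.0018 and 0.00014 in these intervals. All 5 genes had a positive mean from day 1 to day 2 and from day 4 to day 5, and 4 of 5 had a negative one from day 0 to day 1 and from day 3 to day 4. With a set left out the fit keeps its dye term, so a fitted change is no longer the plain mean of the remaining sets. The signs from day 4 to day 5 rested in part on set 2: without it the fitted change was -0.045 for TUB6 and -0.037 for TUB9. Without set 3 the fitted change of TUB5 was -0.018, although its remaining values of -0.13, 0.11 and 0.098 have a mean above 0. From day 0 to day 1 the fitted change of TUB6 was 0.019 without set 3 and 0.0074 without set 4. Its values in sets 1 to 3, 0.0093, 0.10 and -0.30, have a mean below 0. The median size of change, sign set aside, was 0.062, 0.11, 0.032, 0.077 and 0.052 for the TUB genes, against 0.041, 0.041, 0.035, 0.034 and 0.038 for all features. For day 5 against day 0 the family's median was 0.11, with a range of -0.096 to 0.17 over the genes, and the median over all features was -0.0033. The family's median was 0.042 without set 3 and 0.17 without set 1.

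The spread between sets was itself uneven in the family. The residual SD, what is left of a gene's ratios after its interval means and dye term, was 0.061 in TUB1, 0.11 in TUB5, 0.23 in TUB6, 0.19 in TUB7 and 0.11 in TUB9, against a median of 0.087 over all features. TUB1 and TUB9 are means of 2 probes, while TUB5, TUB6 and TUB7 have 1 probe each. Probe A201036_01 of TUB1 alone ranged from -0.36 to 0.27 over the intervals. TUB6 exceeded 91.7% and TUB7 89.2% of all features in this measure, and TUB1 exceeded 18.9%. Ratios of TUB6 and TUB7 therefore carried a larger error than those of most features.

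The day course shows which arrays held these differences. In set 2 all 5 genes were below 0 from day 3 to day 4 and all 5 above 0 from day 4 to day 5. Both arrays hold the day 4 tissue of set 2, and the later day was in Cy5 on the first and in Cy3 on the second, so this tissue and the dye order cannot be told apart in these 2 values. All 5 genes were also above 0 on the arrays of day 1 to day 2 of set 1 and day 4 to day 5 of set 4, both with the later day in Cy3. From day 3 to day 5 together the values of set 2 were 0.027 for TUB1, -0.00074 for TUB5, -0.050 for TUB6, 0.037 for TUB7 and 0.11 for TUB9. In set 3 the array of day 1 to day 2 averaged 0.33 over the 5 genes, the largest mean of the 20 arrays. Against day 0, set 3 stood at 0.74 for TUB6, 0.57 for TUB7 and 0.52 for TUB9 on day 3, where the other sets lay between -0.043 and 0.19, between -0.047 and 0.13, and between -0.10 and 0.053. The interquartile range over all probes was 0.18 for day 1 to day 2 of set 3, 0.14 for day 3 to day 4 of set 2 and 0.18 for day 4 to day 5 of set 2, in a range of 0.099 to 0.19 over all arrays. By this width the 3 arrays ranked 2, 10 and 3 of 20, and the part of array width in the result was not tested.

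**Figure D3:**
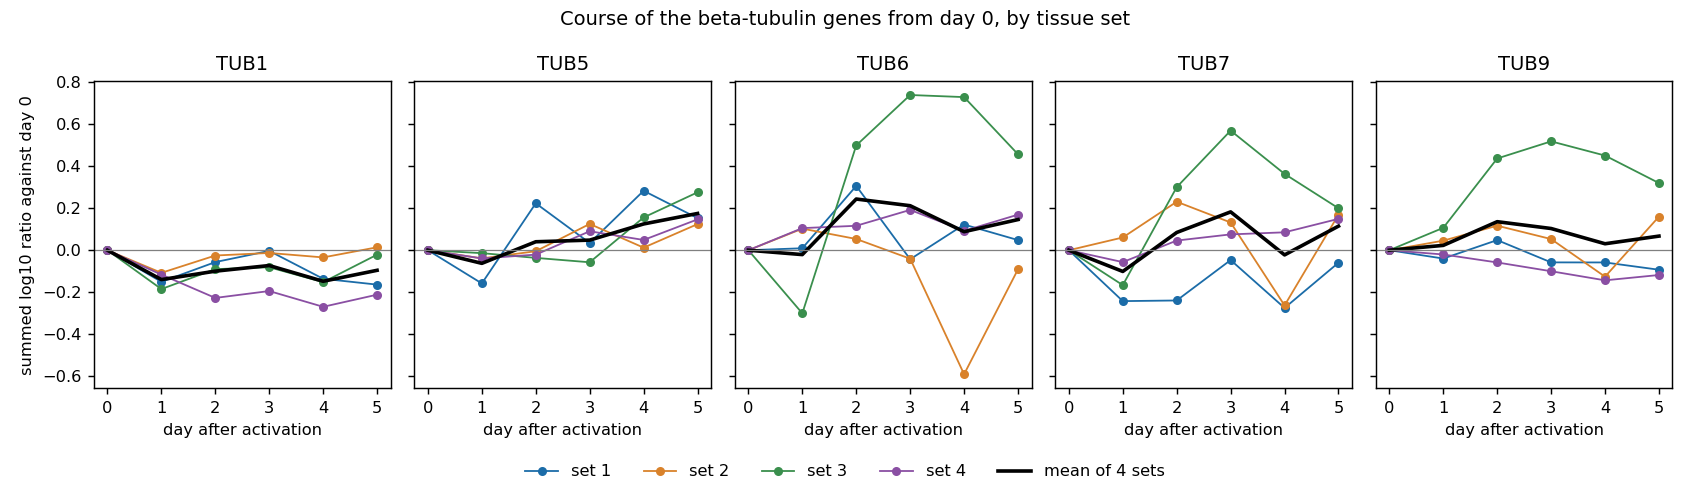
Summed log10 ratio against day 0 (y axis) of the 5 TUB genes by day after activation (x axis). Coloured lines are the 4 tissue sets and the black line their mean. Set 3 stands above the other sets on day 3 for TUB6, TUB7 and TUB9, and set 2 drops to -0.59 on day 4 for TUB6.

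The dye of the later day moved with several members. TUB6 averaged -0.14 ± 0.23 over the 10 arrays that held the later day in Cy5, and 0.20 ± 0.27 over the 10 that held it in Cy3 (SD). For TUB5 the means were -0.049 ± 0.097 over the Cy5 arrays and 0.12 ± 0.14 over the Cy3 arrays. The dye coefficient of the fit, which is added where the later day is in Cy5 and subtracted where it is in Cy3, was -0.17 for TUB6, -0.084 for TUB5, -0.045 for TUB9, -0.024 for TUB7 and -0.010 for TUB1. Its median size over all features was 0.034, and the coefficient of TUB6 was larger than that of 93.7% of them. The dye assignments were balanced within each interval, so the term cancels in the interval means but not in the value of a single array. The sum of a set over the 5 intervals keeps 1 such term, added in sets 1 and 3 and subtracted in sets 2 and 4. It cancels in the mean of the 4 sums. It stays in the single sums, in their SD and, on odd days, in the day course of a set.

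Within a set the dye alternated from interval to interval, so a dye term that is the same on every array cancels in changes over 2 days. In 5 of 20 such changes of the 5 genes all sets lay on 1 side of 0. The share over all features was not worked out, so nothing is read from this count. As the mean of its 2 probes, TUB1 was below 0 throughout from day 0 to day 2. It measured -0.056, -0.025, -0.090 and -0.23 in sets 1 to 4 (-0.10 ± 0.089, SD, n = 4). Probe A025839_01 averaged -0.12 and then 0.15 in the 2 intervals of this span, and A201036_01 -0.16 and then -0.070. Only the second probe thus averaged below 0 over the span. From day 0 to day 2 TUB6 measured 0.31, 0.053, 0.50 and 0.12 in sets 1 to 4, a mean of 0.24 ± 0.20 (SD, n = 4) and a 1.75-fold ratio. All sets lay above 0, from near 0 in set 2 to the highest in set 3. From day 2 to day 4 the same gene measured -0.18, -0.64, 0.23 and -0.024 (-0.16 ± 0.37), so the sets no longer shared a sign. TUB7 measured 0.20, 0.071, 0.73 and 0.13 from day 1 to day 3 (0.28 ± 0.31), above 0 in all sets. For other spans the sets of the same genes parted: TUB6 measured -0.052, -0.14, 1.04 and 0.087 from day 1 to day 3, and TUB7 -0.24, 0.23, 0.30 and 0.046 from day 0 to day 2. TUB9 had sets on both sides of 0 in every span of 2 days. TUB5 measured 0.060, 0.017, 0.19 and 0.070 from day 2 to day 4 (0.085 ± 0.075), also above 0 throughout. As a mean of 2 probes TUB1 measured -0.079, -0.0090, -0.062 and -0.042 there (-0.048 ± 0.030), below 0 throughout. Its probe A025839_01 averaged 0.11 and then -0.064 in these intervals, and A201036_01 -0.058 and then -0.085, so the probes parted here too.

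The members did not vary as 1 group. Correlations here are across the 20 arrays, which share tissue days, dyes and sets, and are given without a test. After removal of interval means and dye terms, TUB6, TUB7 and TUB9 followed each other, with Pearson r = 0.72 for TUB6 and TUB7, 0.77 for TUB6 and TUB9 and 0.75 for TUB7 and TUB9. TUB1 stood between -0.14 and -0.032 with these 3 genes, and TUB5 measured -0.56 with TUB7, -0.23 with TUB6 and -0.18 with TUB9. Over all 10 pairs the median was -0.071.

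Over 16948 other named features the 95th percentile of the residual r was 0.69 with TUB6, 0.67 with TUB7 and 0.63 with TUB9, and the medians lay between -0.034 and -0.0068. TUBG1 encodes gamma-tubulin, which nucleates microtubules, and its residuals gave r = 0.88 with TUB6, 0.84 with TUB9 and 0.73 with TUB7. TUA1, an alpha-tubulin gene known from pollen, gave 0.80 with TUB6, 0.44 with TUB7 and 0.55 with TUB9. The alpha-tubulin gene TUA3 gave 0.62, 0.63 and 0.44 in the same order. TUA2 and TUA6, which encode other alpha-tubulins, lay between -0.20 and 0.28 with TUB6, TUB7 and TUB9. AUR1, an Aurora kinase gene of dividing cells, gave 0.79 with TUB6, 0.87 with TUB7 and 0.61 with TUB9. In the same order AUR2 gave 0.70, 0.58 and 0.41 and AUR3 0.70, 0.72 and 0.61, whereas BUBR1 of the spindle checkpoint gave 0.40, -0.036 and 0.20. COB, a gene of oriented cellulose deposition, gave 0.78, 0.75 and 0.59, so high values were not limited to tubulin or cell division genes. TUBG1 measured 0.19, 0.067, 0.39 and 0.011 in sets 1 to 4 from day 1 to day 2 (mean 0.16 ± 0.17, SD, n = 4, adjusted p = 0.226 by limma), with set 3 again the highest, and it was called in no comparison.

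**Figure D4:**
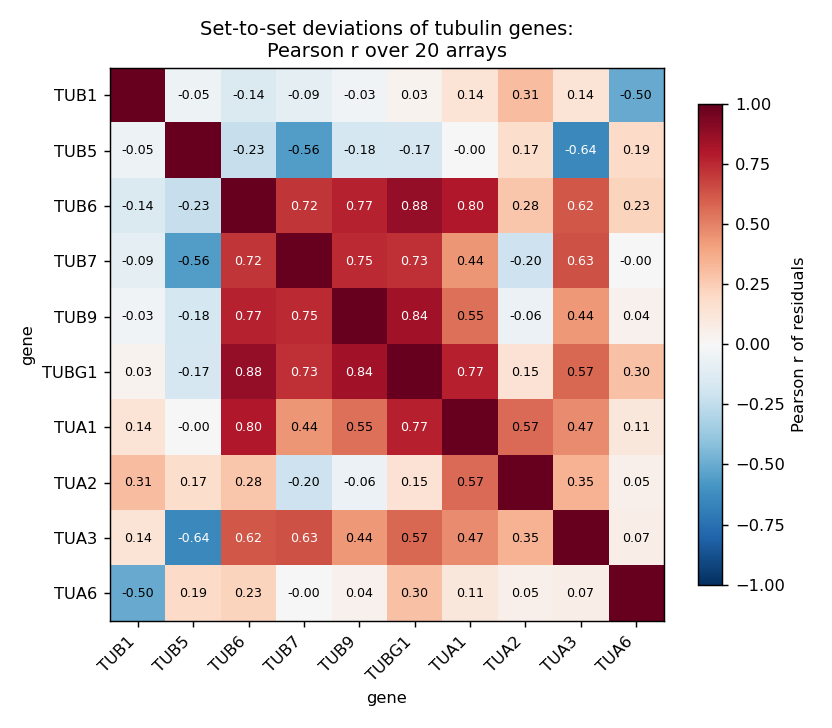
Pearson r over the 20 arrays between the residuals of TUB genes, gamma-tubulin (TUBG1) and alpha-tubulin (TUA) genes, named on both axes. Red is positive and blue negative. TUB6, TUB7, TUB9 and TUBG1 form a block with r of 0.72 to 0.88, while TUB1 and TUB5 stand outside it.

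The pattern of the family's mean over the 20 arrays was set beside 16949 named features with complete values. The mean was taken over unscaled ratios with the dye term left in, so genes with wide values, such as TUB6, weigh most in it. The most similar, by Pearson r of the ratios, were TUBG1 (r = 0.95), the ATP-citrate lyase subunit gene ACLB-1 (0.94), AT5G10060 (0.93), AT1G09800 (0.93) and AT1G62490 (0.93). The median over all these features was -0.050 and the 95th percentile 0.68. With single members TUBG1 gave 0.92 for TUB6, 0.87 for TUB9, 0.72 for TUB7, 0.38 for TUB1 and 0.34 for TUB5. Each TUB gene against the mean of the other 4 gave 0.80 for TUB9, 0.79 for TUB6, 0.61 for TUB7, 0.37 for TUB1 and 0.19 for TUB5. The single most similar features were AT1G07840 for TUB1 (0.92), AT2G35850 for TUB5 (0.88), AT5G10320 for TUB6 (0.96), AT5G17510 for TUB7 (0.94) and AT2G10740 for TUB9 (0.93), none of them a TUB gene.

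Lists of alpha-tubulin, gamma-tubulin and augmin, tubulin folding, microtubule-associated protein, kinesin, actin, mitotic and cellulose synthesis genes had 22 measured genes in all. None was called in any of the 5 intervals by limma, and 1, 8, 1, 1 and 2 of the 22 had an unadjusted p under 0.05, in time order, against 14.6%, 13.5%, 8.5%, 9.79% and 11.3% of all features. The 8 stood in the interval from day 1 to day 2, where the median change of the 22 genes was 0.079, against a median of -0.0018 over all features, and the lowest adjusted p was 0.0730.

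The 4 measured alpha-tubulin genes, TUA1, TUA2, TUA3 and TUA6, encode the partner of beta-tubulin in the dimer. Their median change was -0.064 from day 0 to day 1, 0.10 from day 1 to day 2, 0.032 from day 2 to day 3, -0.052 from day 3 to day 4 and 0.070 from day 4 to day 5, with 0 calls in each by limma. The unadjusted p was under 0.05 for 2 of the 4 in the second of these intervals, where it was so for 13.5% of all features, and for none in the others. Of the mitotic list AUR1, AUR2 and AUR3, Aurora kinase genes of the spindle, and BUBR1, of the spindle checkpoint, had a median of 0.13 from day 1 to day 2 with 0 of 4 called (2 at an unadjusted p under 0.05). Among 8 genes for proteins bound to microtubules, such as SPR1, which keeps cortical microtubules in order, the median was 0.028 in that interval, with 0 called and 1 at an unadjusted p under 0.05. The phragmoplast kinesin gene KINESIN-12B measured 0.16 there (adjusted p = 0.0969 by limma). POR and PFI, cofactors that fold tubulin, measured 0.057 and 0.027.

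For day 5 against day 0 the actin gene ACT11, known from reproductive tissue, was the 1 of these 22 genes that was called, and 3 of the 22 had an unadjusted p under 0.05, against 17.6% of all features. ACT11 rose 4.61-fold, with sums of 0.73, 0.56, 0.88 and 0.49 in sets 1 to 4 (mean 0.66 ± 0.17, SD, n = 4, adjusted p = 0.0298 by limma). All sets were far above 0. In the 5 intervals its changes were 0.0055, 0.18, 0.21, 0.086 and 0.18, none of them called. The call was lost without any 1 of the 4 sets, with adjusted p from 0.0856 to 0.155 by limma, but with 3 sets none of 28623 to 28627 features was called (3618 to 4721 had an unadjusted p under 0.05), and the change of ACT11 stayed between 0.59 and 0.72. The 5 TUB genes lay between -0.096 and 0.17 in the same comparison, and the difference between ACT11 and the TUB genes was not tested.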

How the data were processed

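The deposited values are log10 ratios of 20 two-colour arrays. In vitro transcription amplified the RNA before dye coupling, per the labels' protocols. The sources used here do not state how background and dyes were corrected, the log base or the numerator. The authors' values stop at 2 and -2 and were therefore read as log10. Array medians lay between -0.0033 and 0.012. Of 30741 spots 547 control or other spots were left out, and 18645 of 18740 singly named probes were matched to the RefSeq table of TAIR10.1.

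Cy5 was assumed to be the numerator and the sign of Cy3 arrays was turned to later over earlier, so the direction is an assumption and not settled. Over 28246 probes inside the limits on every array, arrays of opposite dye in an interval had a median correlation of 0.061 as deposited, and -0.31 after subtraction of each probe's mean over the arrays (2 of 20 pairs above 0). FD, a flowering regulator, then changed by -0.36, -0.51, -0.30 and -0.42 from day 0 to day 1, the same sign in all sets. The reverse channel order would turn every sign in the report. It would leave these correlations and the shared sign of FD as they are. They bear on whether the values were already turned, and not on which channel is the numerator.

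Probes of a gene were averaged. Features needed 3 of 4 arrays in every interval. limma 3.58.1 in R 4.3.3 was fitted to 20 arrays with 5 interval coefficients and 1 dye coefficient (14 residual degrees of freedom), and to the 4 set sums for day 5 against day 0 (at least 3 sets, 3 residual degrees of freedom), two-sided, with Benjamini-Hochberg adjustment over all features at 0.05. The set numbers mark shared tissue per the labels, so the fit with the set as a replicate block is given where it changes a call. Residuals of arrays of the same set correlated between -0.19 and 0.14 over the features. The number of arrays limits the precision.

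The members, the gene lists and the alternatives were chosen with earlier results of these data known, and the dye means, changes over 2 days and residual correlations were added after seeing the data. Named genes are all measured TUB genes, the called genes of each pathway and marker list and up to 3 uncalled ones (any beyond that were chosen after their values were seen), the 5 features most like the family's mean and the 1 most like each member. CCT1 and CCT2 were dropped from the folding list because these symbols name other genes here.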

Additional observations from a re-analysis of the deposited data

Results flagged for a closer look

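In 3 of 30 groups of 4 sets, a member of the family had a set far from the other 3 by Dixon's criterion. The nominal rate is about 1 of 20 groups. The groups are not independent, because the sums hold the interval values, neighbouring intervals share tissue and the sets differ in dye. The share over all features was not worked out, so nothing is read from this count. TUB1 measured -0.11 in set 4 from day 1 to day 2, against 0.082 to 0.095 in the others. TUB5 measured 0.38 in set 1 from day 1 to day 2 against -0.023 to 0.034 in the others, and -0.13 in set 1 from day 4 to day 5, against 0.098 to 0.12 in the others.

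As the mean of its 2 probes, TUB1 was above 0 in all sets from day 2 to day 3. It was below 0 in all sets from day 0 to day 1 and from day 3 to day 4. The probes parted from day 2 to day 3, where A025839_01 averaged 0.11 ± 0.12 (SD, n = 4). There A201036_01 measured -0.084, 0.013, -0.22 and 0.063 in sets 1 to 4, a mean of -0.058 ± 0.13. The mean change of TUB1 from day 2 to day 3 exceeded that from day 0 to day 1 by 0.17 and that from day 3 to day 4 by 0.10, and these differences were not tested.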

How the results depend on the processing

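With the tissue set as a replicate block, and with the arrays of the interval fitted alone, 0 TUB genes were called from day 0 to day 1 by limma, against 1 in the reported fit. Without each set the count in this interval ranged from 0 to 0, and from day 1 to day 2 from 0 to 1. Single probes gave 1 call from day 1 to day 2. Of the calls of the TUB genes the block changed no other. Without each set the family's median of the fitted changes kept its sign in every comparison except day 2 to day 3, where it ranged from -0.027 to 0.034. Its range was 0.042 to 0.17 for day 5 against day 0. Centring, scaling, leaving out the dye coefficient, taking values at the limit as missing, requiring all arrays and, for day 5 against day 0, summing the interval coefficients changed no count of TUB calls. If the deposited values had already been turned to the later day, 0 TUB genes would be called from day 0 to day 1 and 1 for day 5 against day 0, the family's median would be -0.077 from day 1 to day 2, -0.11 from day 4 to day 5 and -0.22 for day 5 against day 0. TUB6 would measure -0.86 over the course, ACT11 -0.020, CLV3 0.13 and FD 0.37. FD would measure 0.071 and UFO -0.045 from day 0 to day 1, MUTE -0.034 from day 3 to day 4, and CLV3 0.057, UFO 0.051 and RCA -0.011 from day 4 to day 5. The cause of the lost calls was not tested, and the fits without a set also hold fewer arrays. The number of arrays, 4 for each interval, limits the precision.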
